A study of Sus scrofa with 15 samples.

Results

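Muscle stores glucose as glycogen, a branched polymer that is built up after feeding and broken down for energy during contraction. Phosphoglucomutase (PGM1) interconverts glucose 6-phosphate and glucose 1-phosphate, UDP-glucose pyrophosphorylase (UGP2) makes the activated sugar, glycogen synthase of muscle (GYS1) lengthens the chains and the branching enzyme (GBE1) sets the branch points. Glycogen phosphorylase of muscle (PYGM) releases glucose 1-phosphate and is switched on by phosphorylase kinase, of which PHKG1 is the catalytic and PHKA1 a regulatory subunit. PPP1R3C, also called protein targeting to glycogen, brings protein phosphatase 1 to the glycogen particle, where the phosphatase activates the synthase and inactivates phosphorylase. In pigs, alleles of PHKG1 and of PRKAG3, a subunit of the energy sensor AMPK, are known for their effect on glycogen content in muscle and on meat quality.

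These 8 genes of glycogen synthesis and breakdown were followed across 15 pigs weighing 20 kg, from whose Longissimus muscle RNA was taken. The low_RFI pigs (strain RFIneg, n = 7) and the high_RFI pigs (strain RFIpl, n = 8) came from lines of low and high residual feed intake, which is feed eaten beyond the predicted need, and both lines ate ad libitum. Age, sex and relatedness of the pigs are not in the labels. Each pig was hybridised to 1 single-colour array. A level is the log2 of the spot's processed signal minus the log2 of the array's 75th percentile, so a difference of 1 is a doubling, and levels of different probes cannot be set against each other. Probes were taken for a gene when the array's gene name, a synonym of it or the probe's description gave a listed gene, and when the scanner marked the spot as well above background on 7 or more of the 15 arrays. That left 16 of 31984 tested probes, for 6 of the 8 genes and of 4655 genes tested in all: 1 for GYS1, 1 for GBE1, 5 for UGP2, 2 for PGM1, 1 for PHKG1 and 6 for PPP1R3C. By the gene name alone 4 genes were found; GBE1, PHKG1 and the second PGM1 probe were matched through a description or a synonym. All 16 probes were well above background on all 15 arrays. No probe was matched to PYGM or PHKA1, which were therefore not analysed here. In addition, 3 probes were described only as similar to GBE1 or PPP1R3C of another species; they are kept apart, and 1 of them, for GBE1, was tested.

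The probes below are the 60-base oligonucleotides, as the array files give them, that carry the values of GYS1, GBE1 and PHKG1, both PGM1 probes, whose values disagreed, and 1 probe each for UGP2 and PPP1R3C from regions shared with no other probe of the gene. They are in lower case because no stretch within them is singled out. The chromosome of each gene is that of the Sscrofa11.1 assembly. PGM1 and GYS1 lie on chromosome 6, UGP2 and PHKG1 on chromosome 3, GBE1 on chromosome 13 and PPP1R3C on chromosome 14. Which exon each probe matches was not determined.
PGM1 A_72_P233607: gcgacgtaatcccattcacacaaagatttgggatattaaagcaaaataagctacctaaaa
PGM1 A_72_P108441: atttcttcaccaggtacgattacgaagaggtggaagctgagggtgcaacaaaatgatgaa
UGP2 A_72_P427819: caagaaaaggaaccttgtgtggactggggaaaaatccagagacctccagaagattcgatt
GYS1 A_72_P442869: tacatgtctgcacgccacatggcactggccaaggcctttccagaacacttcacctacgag
GBE1 A_72_P444226: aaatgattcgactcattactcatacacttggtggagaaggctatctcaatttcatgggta
PHKG1 A_72_P515536: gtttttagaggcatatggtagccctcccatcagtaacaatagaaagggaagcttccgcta
PPP1R3C A_72_P261022: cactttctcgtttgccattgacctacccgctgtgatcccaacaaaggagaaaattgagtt

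Per array, 61.7% to 79.5% of the probes other than controls passed the scanner's background test, and no spot was saturated. Markers of skeletal muscle were present on every array, with 10 of 10 tested markers well above background on all 15. Their mean level was 8.61 to 8.91 in low_RFI and 8.51 to 9.03 in high_RFI. Markers of other cell types were present at lower mean levels whose ranges in the lines overlapped: adipocyte genes (6 tested) lay at 0.67 to 1.80 in low_RFI and 0.54 to 1.81 in high_RFI, and endothelial genes (5 tested) at 1.26 to 1.56 in low_RFI and 1.25 to 1.78 in high_RFI. In bulk muscle, fewer cells of a type and less RNA per cell cannot be told apart. Both lines were present on each of the 4 slides. The array names carry numbers in 2 runs, 55 to 62 (n = 7) and 1 to 8 (n = 8), both with pigs of each line; what the numbers stand for is not stated.

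Between the lines, 0 of the 6 genes differed in limma after adjustment over all genes, and 0 did so at an unadjusted p under 0.05. Over all genes tested, 0.0215% passed (1 gene of 4655) and 7.24% had an unadjusted p under 0.05. The levels of the lines overlapped for each of the 6 genes, and 0.129% of all genes had lines that did not overlap. GYS1 and PHKG1 averaged higher in low_RFI, and UGP2, PGM1, GBE1 and PPP1R3C averaged higher in high_RFI. The median log2 difference, low_RFI minus high_RFI, was -0.12 over the 6 genes and 0.016 over all genes. The p-values set the line difference against the spread between these pigs, which were treated as independent because their relatedness is not known.

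**Figure D1:**
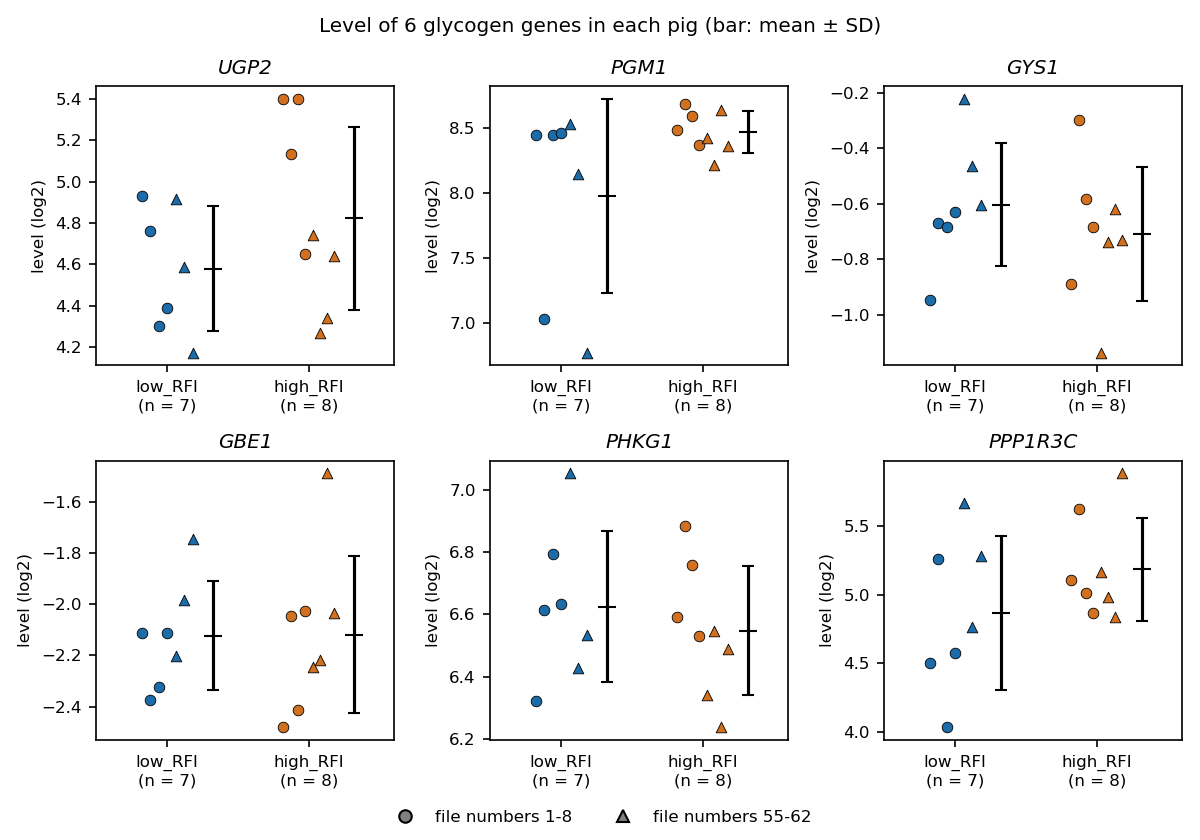
Level (log2 of the processed signal relative to the array's 75th percentile) of the probe representing each of 6 glycogen genes in 7 low_RFI and 8 high_RFI pigs; points are pigs, symbols give the run of file numbers, and bars are mean ± SD. The lines overlap for each gene, and PGM1 stands low in 2 low_RFI pigs.

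Of the enzymes that supply the activated sugar, PGM1 had the widest gap between the lines, and it came from 2 pigs and 1 of 2 probes. On the probe that represents the gene, the 7 low_RFI pigs ran from 6.77 over a median of 8.45 to 8.53, and the 8 high_RFI pigs from 8.21 over a median of 8.45 to 8.69. Low_RFI replicates 7 and 2 stood at 6.77 and 7.03, below all other pigs, while the other 5 low_RFI pigs lay between 8.15 and 8.53, mostly inside the high_RFI range. The lines averaged 7.98 ± 0.75 (SD) in the 7 low_RFI pigs and 8.47 ± 0.16 (SD) in the 8 high_RFI pigs, a log2 difference of -0.50 ± 0.25 (SE, 95% interval -1.03 to 0.038, limma adjusted p = 0.739). Without both of these pigs the difference was -0.065. That value was computed after the levels had been seen and says what the 2 pigs contribute.

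The second PGM1 probe did not show this. It gave 7.02 in low_RFI replicate 2 and 6.69 in replicate 7, against 6.56 to 7.20 in the other 5 low_RFI pigs and 6.44 to 6.88 in high_RFI. Its lines averaged 6.86 ± 0.22 (SD) in the 7 low_RFI pigs and 6.70 ± 0.16 (SD) in the 8 high_RFI pigs, a log2 difference of 0.15 ± 0.10 (SE), opposite in sign to that of the first probe. Across the 15 pigs the levels of the 2 probes were correlated at -0.080, as a description, although the array's annotation ties both to the same mRNA clone. The same 2 pigs also had the highest mean level over the 6 tested heat shock genes (HSP70.2, HSPB1, HSPH1, DNAJB1, HSPA5 and HSP90AA1), 5.22 in replicate 2 and 4.46 in replicate 7, against 3.21 to 3.62 in the other 5 low_RFI pigs and 2.66 to 3.64 in high_RFI. The part of this in the PGM1 level was not tested.

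**Figure D2:**
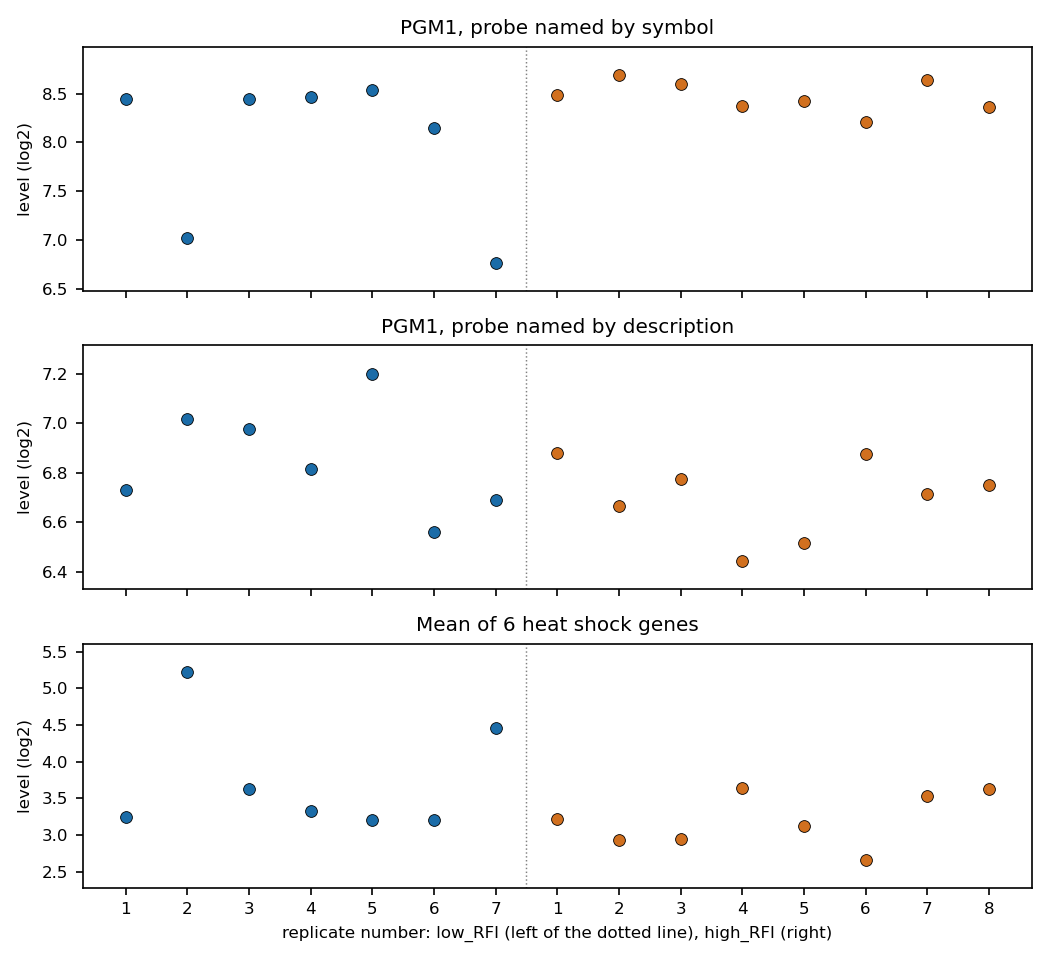
Level (log2) of both PGM1 probes and mean level (log2) of 6 heat shock genes in each pig, low_RFI left and high_RFI right of the dotted line. Low_RFI replicates 2 and 7 are low on the probe named by its symbol (7.03 and 6.77) and high for the heat shock genes (5.22 and 4.46), and lie among the other pigs on the second PGM1 probe.

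UGP2 varied between pigs in the same way on all 5 probes. On the probe that represents it, low_RFI ran from 4.17 over a median of 4.59 to 4.93, and high_RFI from 4.27 over a median of 4.70 to 5.40. High_RFI replicates 1 and 3 were the highest pigs, each at 5.40, and high_RFI replicate 2 followed at 5.13, above every low_RFI pig. The lines averaged 4.58 ± 0.30 (SD) in the 7 low_RFI pigs and 4.82 ± 0.44 (SD) in the 8 high_RFI pigs, a log2 difference of -0.24 ± 0.19 (SE, 95% interval -0.64 to 0.16, limma adjusted p = 0.886). The 5 probes gave -0.27 to -0.19, and the correlations of their levels across pigs, as a description, were 0.861 to 0.978. A_72_P606238 and A_72_P165756 share 50 of their 60 bases, so they count as near copies; the other pairs share at most 11 in a row. A_72_P557835 had no value in low_RFI replicate 5, where the spot was flagged as non-uniform.

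In synthesis proper, GYS1 ran from -0.94 over a median of -0.63 to -0.22 in low_RFI, and from -1.14 over a median of -0.71 to -0.30 in high_RFI. The highest pig was low_RFI replicate 5 and the lowest high_RFI replicate 5, and the rest of both lines lay between them. The log2 difference was 0.11 ± 0.12 (SE, 95% interval -0.15 to 0.36, limma adjusted p = 0.942), with the low_RFI pig higher in 36 of 56 pairs.

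The mean level of GBE1 was -2.12 in low_RFI and -2.12 in high_RFI. It ran from -2.38 over a median of -2.11 to -1.75 in low_RFI, and from -2.48 over a median of -2.13 to -1.49 in high_RFI, with high_RFI replicate 7 standing above all other pigs. The log2 difference was -0.0037 ± 0.14 (SE, 95% interval -0.29 to 0.28, limma adjusted p = 0.998). The probe described as similar to the chimpanzee branching enzyme gave -2.28 ± 0.18 (SD) in the 7 low_RFI pigs and -2.48 ± 0.30 (SD) in the 8 high_RFI pigs, and its levels correlated with those of the named probe at 0.115 across the 15 pigs. The 2 probes thus do not rank the pigs alike.

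On the side of breakdown, PHKG1 ran from 6.32 over a median of 6.61 to 7.05 in low_RFI, and from 6.24 over a median of 6.54 to 6.88 in high_RFI. The ranges overlapped over most of their length. Its log2 difference was 0.077 ± 0.12 (SE, 95% interval -0.17 to 0.32, limma adjusted p = 0.981). A further probe is described as pig glycogen phosphorylase with no isoform named, so it cannot be assigned to PYGM. It averaged -2.85 ± 0.30 (SD) in the 7 low_RFI pigs and -2.73 ± 0.52 (SD) in the 8 high_RFI pigs, a log2 difference of -0.11 ± 0.21 (SE).

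PPP1R3C, the scaffold of the phosphatase, differed more between pigs than between lines. Low_RFI ran from 4.03 over a median of 4.76 to 5.67, and high_RFI from 4.84 over a median of 5.06 to 5.89. The lowest pig was low_RFI replicate 3 and the highest high_RFI replicate 8, a span of 3.61-fold; 4 low_RFI pigs, replicates 1, 3, 4 and 6, lay below every high_RFI pig. The lines averaged 4.87 ± 0.56 (SD) in the 7 low_RFI pigs and 5.19 ± 0.37 (SD) in the 8 high_RFI pigs, a log2 difference of -0.32 ± 0.23 (SE, 95% interval -0.80 to 0.17, limma adjusted p = 0.864). Without low_RFI replicate 3 the difference was -0.18. All 6 probes ranked the pigs nearly alike: the 15 correlations between their levels were 0.926 to 0.998, although no pair shares more than 9 bases in a row, and their log2 differences were -0.34 to -0.23. Probes of 1 gene read the same RNA of the same pigs and are not replicates.

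**Figure D3:**
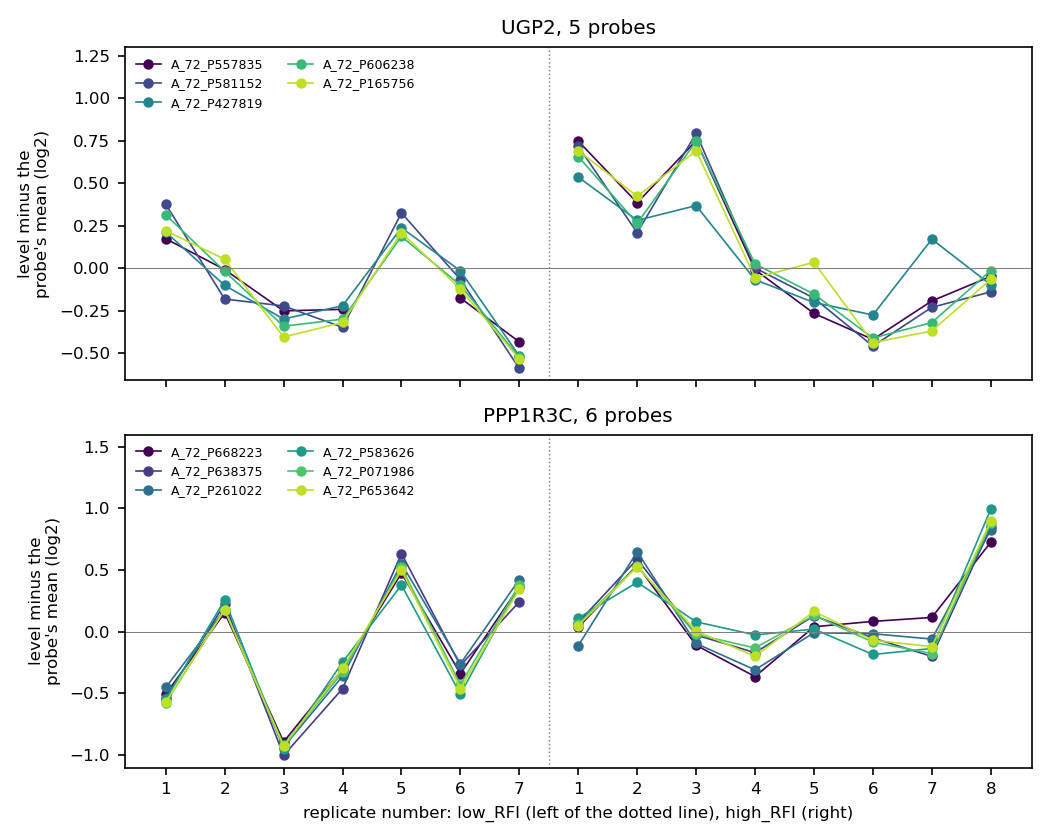
Level of each UGP2 and PPP1R3C probe minus that probe's mean over pigs (log2), by pig, low_RFI left and high_RFI right of the dotted line; lines join the points of 1 probe within a line of pigs and imply no order. The 5 UGP2 probes peak in high_RFI replicates 1 and 3, and the 6 PPP1R3C probes are lowest in low_RFI replicate 3 and highest in high_RFI replicate 8.

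Ranked by SD over the 15 pigs among the 4655 genes, PGM1 stood at percentile 88.4, PPP1R3C at 83.8, UGP2 at 74.8, GBE1 at 50.1, GYS1 at 41.1 and PHKG1 at 37.3. The regulator PPP1R3C and the 2 sugar-supplying enzymes thus varied more than most genes, and the synthase and the kinase subunit less than the median gene. For PGM1 this rests on the 2 low pigs described above.

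Within the 4 slides, numbered 1 to 4, the log2 differences of the lines were -0.76, -0.11, -0.018 and -0.86 for PGM1, where slides 1 and 4 hold the low pigs. They were -0.16, -0.0082, 0.11 and -0.74 for UGP2, and -0.036, -0.89, 0.00073 and -0.52 for PPP1R3C. For GYS1 they were 0.25, -0.23, 0.20 and 0.039, for GBE1 0.17, 0.032, -0.51 and 0.29, and for PHKG1 -0.049, -0.29, 0.54 and -0.041. On the probe that represents it, PGM1 was therefore lower in low_RFI on all 4 slides, with only -0.11 and -0.018 on slides 2 and 3. The second PGM1 probe averaged higher in low_RFI over all pigs (log2 difference 0.15). The other 5 genes did not keep 1 direction. On slide 2 the only low_RFI pig was replicate 1, so the values of that slide rest on that pig for low_RFI.

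By run of file numbers, 0 of the 6 genes differed between pigs 55 to 62 and pigs 1 to 8 in limma with line as a covariate, against 3.67% of all genes (171 of 4655). At an unadjusted p under 0.05 there was 1 of the 6, where all genes give 22.7%. That gene, UGP2, averaged 4.52 ± 0.27 (SD, n = 7) in pigs 55 to 62 and 4.87 ± 0.42 (SD, n = 8) in pigs 1 to 8, a log2 difference of -0.37 ± 0.17 (SE, limma adjusted p = 0.213). GBE1 gave 0.25 ± 0.12 (SE), PPP1R3C 0.33 ± 0.22, PGM1 -0.20 ± 0.25, PHKG1 -0.12 ± 0.12 and GYS1 0.035 ± 0.12, with adjusted p-values from 0.213 to 0.891 over the 6 genes. The highest UGP2 pigs all belong to pigs 1 to 8.

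Whether the line difference itself differed between the runs was tested as an interaction, and 0 of the 6 genes passed after adjustment (0% of all genes passed). GYS1 was 0.38 higher in low_RFI within pigs 55 to 62 and gave -0.12 within pigs 1 to 8, an interaction of 0.50 ± 0.22 (SE, unadjusted p = 0.0397, limma adjusted p = 0.859); 5.63% of all genes had an unadjusted p under 0.05 in this test. UGP2 gave 0.060 within pigs 55 to 62 and -0.55 within pigs 1 to 8 (interaction 0.61 ± 0.31, limma adjusted p = 0.888), and PPP1R3C gave 0.019 within pigs 55 to 62 and -0.56 within pigs 1 to 8 (0.58 ± 0.43, limma adjusted p = 0.973). PGM1 had -0.59 within pigs 55 to 62 and -0.44 within pigs 1 to 8, where each run holds 1 of the 2 low pigs.

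Of 35 other genes of glycogen metabolism, 19 were tested, and 0 differed between the lines in limma after adjustment (adjusted p of at least 0.558, against 0.0215% of all genes called). At an unadjusted p under 0.05 there were 2 of the 19, where all genes give 7.24%. 12 averaged higher in low_RFI and 7 in high_RFI, with a median log2 difference of 0.049. The 2 were PGM3, a phosphoglucomutase family member that acts on N-acetylglucosamine phosphate (0.32 ± 0.11 SE, limma adjusted p = 0.558), and PRKAR2A, a regulatory subunit of the cAMP-dependent kinase upstream of phosphorylase kinase (0.25 ± 0.097 SE, limma adjusted p = 0.602). A gene of this wider list with no named probe took one described only as similar to it, as did GYG2 (0.20 ± 0.36 SE), PHKG2 and PPP1R3B. The phosphorylase of liver PYGL gave -0.18 ± 0.097 (SE, 95% interval -0.38 to 0.026). Its difference was -0.37 within pigs 1 to 8 and 0.019 within pigs 55 to 62 (interaction 0.39 ± 0.15, limma adjusted p = 0.853). The kinase subunits PHKB and PHKG2 gave 0.12 ± 0.14 and 0.012 ± 0.088. GSK3B, which phosphorylates glycogen synthase, gave -0.079 ± 0.14. The phosphatase's other glycogen-targeting subunits gave 8.3e-06 ± 0.32 (PPP1R3B), -0.30 ± 0.21 (PPP1R3D) and -0.10 ± 0.22 (PPP1R3E), and its catalytic subunits -0.11 ± 0.11 (PPP1CA), 0.12 ± 0.10 (PPP1CB) and -0.065 ± 0.075 (PPP1CC).

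**Figure D4:**
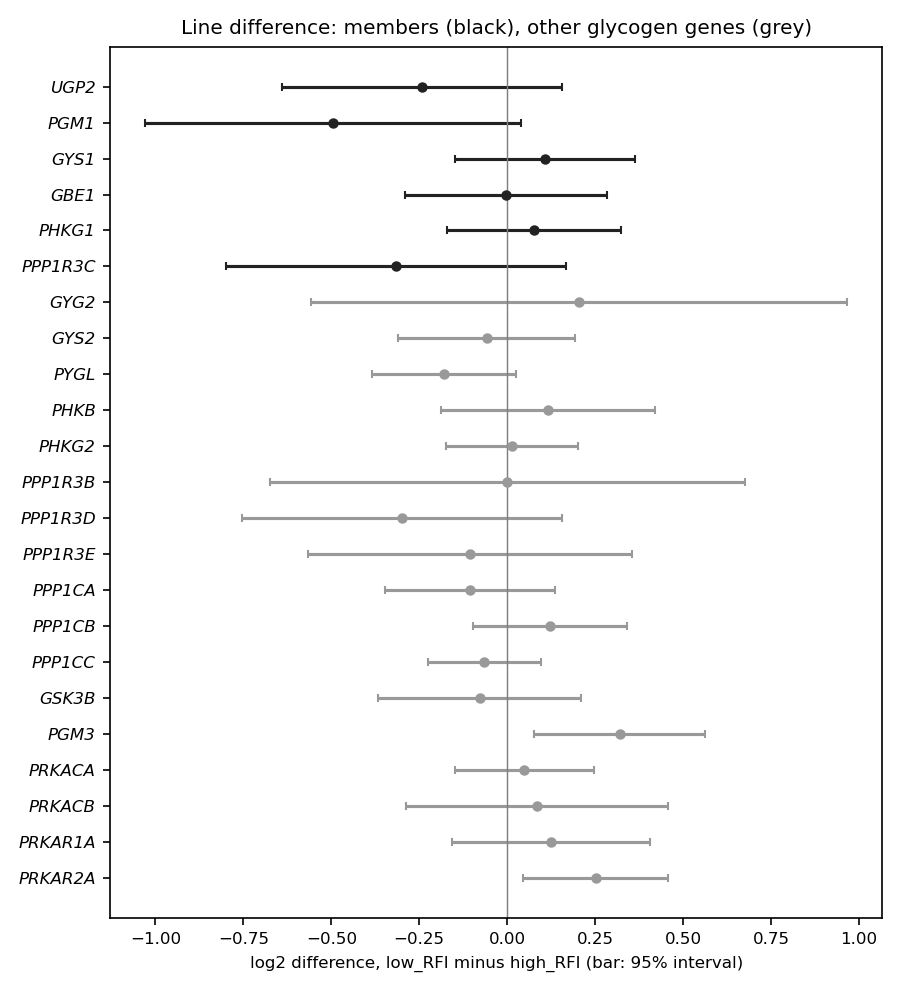
Log2 difference, low_RFI minus high_RFI, with its 95% interval for 6 glycogen genes (black) and 17 of the 19 other genes of glycogen metabolism tested (grey). The intervals of all 6 cross 0. Those of PGM3 and PRKAR2A do not, and neither passed adjustment over all genes. The values of GYG2, PHKG2 and PPP1R3B come from probes described only as similar to the gene.

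Between the runs, 1 of these 19 genes passed: PRKAR2A fell in pigs 55 to 62, with a log2 difference of -0.27 ± 0.070 (SE, limma adjusted p = 0.0449), where 1.53% of all genes passed in that direction. The call ended in 18 of 28 other settings, leaving out 1 pig among them for 13 of the 15 pigs, with adjusted p-values from 0.0139 to 0.261 and a difference of -0.31 to -0.21. PPP1R3B, on a probe described only as similar to it, had the largest value, 0.75 ± 0.26 (SE, limma adjusted p = 0.11).

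PRKAG3, the AMPK subunit, averaged 0.57 ± 1.11 (SD) in the 7 low_RFI pigs and -0.15 ± 0.32 (SD) in the 8 high_RFI pigs, a log2 difference of 0.72 ± 0.38 (SE, limma adjusted p = 0.75). Low_RFI replicates 3 and 4 stood at 2.31 and 1.90 and the median of low_RFI was 0.13. Without replicate 3 the difference was 0.43. Between pigs 55 to 62 and pigs 1 to 8 PRKAG3 differed by -0.80 ± 0.33 (SE, limma adjusted p = 0.163). These values are of the probe that represents it. A second probe gave 0.44 ± 0.22 (SE) between the lines. On it, low_RFI replicates 3 and 4 stood at -1.91 and -2.22, and replicate 5 at -2.03. Between the runs it gave -0.63 ± 0.16 (SE, limma p adjusted over all probes = 0.0536).

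Across the 15 pigs, 0 of the 15 pairs among the 6 genes were correlated after Benjamini-Hochberg adjustment of permutation tests. The closest was GYS1 with PHKG1 (Pearson r 0.670, permutation p = 0.00664, adjusted p = 0.0996; Spearman rho 0.479, permutation p = 0.0736, adjusted p = 0.32). It was 0.706 within low_RFI and 0.620 within high_RFI, and 0.663 within pigs 55 to 62 and 0.822 within pigs 1 to 8. Without the 2 pigs farthest from the median of GYS1, low_RFI replicate 5 and high_RFI replicate 5, r was 0.433, so the relation rests in part on them. GBE1 and UGP2 tended the opposite way (r -0.562, permutation p = 0.028, adjusted p = 0.21; rho -0.518, permutation p = 0.0504, adjusted p = 0.32; -0.400 without 2 pigs).

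Some glycogen enzymes are known to differ in amount between fast and slow fibres. The 6 genes were therefore also set against the mean level of 11 fast fibre genes, 11 slow fibre genes and PRKAG3. Of these 18 relations, 0 passed. PHKG1 came closest, with the fast fibre mean (r 0.597, permutation p = 0.0184, adjusted p = 0.2; rho 0.700, permutation p = 0.00475, adjusted p = 0.0855). That r was 0.565 within low_RFI, 0.629 within high_RFI, 0.577 within pigs 55 to 62, 0.619 within pigs 1 to 8 and 0.570 without the 2 pigs farthest from the median. With the slow fibre mean PHKG1 gave r -0.500 (permutation p = 0.0578, adjusted p = 0.347) and rho -0.539 (permutation p = 0.0421, adjusted p = 0.318). PPP1R3C and PRKAG3 gave r -0.593 (permutation p = 0.0222, adjusted p = 0.2) and rho -0.368 (permutation p = 0.178, adjusted p = 0.375). Without low_RFI replicates 3 and 4, r was -0.024, so the r over all 15 pigs rests largely on those 2 pigs. Within the lines r was -0.564 in low_RFI and -0.514 in high_RFI, which holds neither of them. It was -0.800 within pigs 1 to 8 and 0.382 within pigs 55 to 62.

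**Figure D5:**
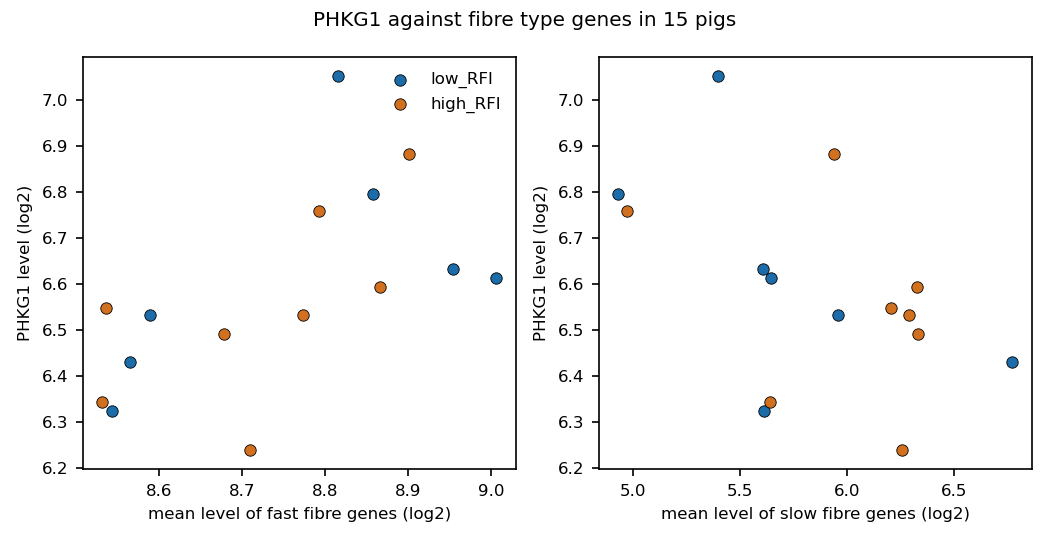
PHKG1 level (log2) against the mean level (log2) of 11 fast fibre genes (left) and 11 slow fibre genes (right) in 7 low_RFI and 8 high_RFI pigs. PHKG1 is higher where the fast fibre mean is higher (r 0.597) and tends lower where the slow fibre mean is higher (r -0.500); neither relation passed adjustment over 18.

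The genes whose levels over the 15 pigs were most like each of the 6, by Pearson r among all genes tested, are given as a description. They were picked for the highest r of all genes, so a high r by itself shows no link. For GYS1 they were SLC35A4 (0.866), TSPAN3 (0.815) and C3H16orf59 (0.812). For GBE1 they were MTERFD3 (0.858), SCD (0.848) and SETDB2 (0.837). For UGP2 they were SLC19A2 (0.807 over 14 pigs), PPP1CA (0.805) and SUDS3 (0.781). PPP1CA, which encodes a catalytic subunit of protein phosphatase 1, gave 0.587 without high_RFI replicates 1 and 3. For PHKG1 they were CAPN7 (0.870), DEDD (0.844) and ADIPOR1 (0.786). For PPP1R3C they were UBTD1 (0.775), PRDX3 (0.774) and POPDC2 (0.765). For PGM1 they were ANGPTL1 (0.804), TCTEX1D4 (0.796) and UTY (0.740), which gave 0.504, -0.114 and 0.155 without low_RFI replicates 7 and 2, so that likeness rests on those 2 pigs. Taking out the 2 pigs farthest from its median left the other 5 genes' values between 0.574 and 0.922.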

How the data were processed

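Total RNA of Longissimus muscle from 15 pigs was measured, 1 pig per single-colour array. Per the labels, 150 ng of RNA was amplified and labelled with Cy3. Scanner values are intensity, which the authors extracted with Feature Extraction 10.7.3.1 per the file headers, background-subtracted and not normalized between arrays. Other scanner columns that served here, the spot flags, are also given per the file headers. The deposited table gives log2 values by the authors, with R 2.10.0 named in the submitters' processing notes. Compared with the scanner files, they equal the processed signal on the log2 scale, centred per array on the median of the 29364 spots listed, to within 4.93e-08. The table served as an alternative.

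Control spots and spots flagged as non-uniform or as outliers did not enter, and replicate spots of a probe were averaged. A probe was tested if well above background on at least 7 arrays with at least 4 values per line, which kept 31984 of 43603. Names came from array symbols, synonyms, accessions and descriptions through the RefSeq gene table of Sscrofa11.1. The description matches were settled after the annotation was seen. Values of 2 genes of the wider list are not reported here. A gene's tested probe of highest mean level represents it. Fits used R 4.3.3 with limma 3.58.1, its lmFit and eBayes functions, two-sided, with Benjamini-Hochberg adjustment over 4655 genes and calls under 0.05; the code was tested on simulated data. Line was compared without covariates, runs of file numbers with line, and their interaction. Correlations used 100000 permutations, two-sided.

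Precision is limited by the number of pigs, with a median SE of 0.13 for a gene's log2 line difference. The text names the listed glycogen genes, PRKAG3 and the 3 most similar genes each. Members and lists were chosen with earlier results of these data known. Same-numbered pigs of the lines deviated together at correlations of -0.041 to 0.308, and the number also fixes the run. The main fits did not treat the numbers as pairs, and a block for the number served as an alternative. Alternatives covered background, normalization, filters, slide, replicate number, run, limma options, probe choice and each array left out.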

Additional observations from a re-analysis of the deposited data

Results flagged for a closer look

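GBE1, the branching enzyme, stood apart in high_RFI replicate 7 on its named probe. The level there was -1.49, against -2.48 to -2.03 in the other 7 high_RFI pigs. The gap to the next pig was 0.541 of the range of the line. It was the 1 such sample among the 36 groups of levels examined. Chance gives about 1 in 20, so 1 in 36 is not above that rate. The measure takes only the gap to the nearest pig. It therefore passes over 2 pigs that lie low together, as low_RFI replicates 2 and 7 do on the first PGM1 probe. The second GBE1 probe, named by similarity, was correlated with the first at r 0.115 across the 15 pigs, as a description. On that probe high_RFI replicate 7 did not stand apart, at -2.50 within a high_RFI range of -2.81 to -1.91.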

How the results depend on the processing

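The count of glycogen genes that passed stayed at 0 of 6 in limma under every alternative run, for the lines (30 alternatives), the runs (28) and their interaction (29). The run contrast could not be fitted with the replicate block, because the number fixes the run. Over all genes, the line count of 1 was 0 with normexp, the median, the deposited values, no filter, slide as a fixed block, the replicate block or run as a block. It was 2 with quantile normalization, array weights or the mean of probes, and 0 to 3 without 1 pig. The run count of 171 was 61 with normexp, 324 with slide as a fixed and 290 as a random block, 348 with array weights and 74 to 232 without 1 pig. Without both pigs whose PGM1 probe stood low, an alternative added after the data were seen, the counts were 0 for lines, 68 for runs and 2 for the interaction. The GBE1 line difference changed sign with quantile normalization (0.00068), the replicate block (0.0085) and run as a block (0.014), and lay between -0.067 and 0.086 without 1 pig. Between the runs, GYS1 lay between -0.038 and 0.11 without 1 pig and PGM1 between -0.34 and 0.022; the cause was not tested. The PGM1 line difference was -0.17 with the mean of its probes and -0.59 to -0.29 without 1 pig. Without 1 pig, the line differences were also -0.45 to -0.18 for PPP1R3C, -0.32 to -0.16 for UGP2, 0.043 to 0.17 for GYS1, 0.0063 to 0.13 for PHKG1 and 0.43 to 0.92 for PRKAG3. With normexp, 1 of 15 pairs passed (GBE1 with PHKG1, r -0.715, permutation adjusted p = 0.0397) and 1 of 18 fibre relations (PHKG1 with fast fibre genes, r 0.760, permutation adjusted p = 0.0162). With the median, 1 pair passed (GYS1 with PHKG1, r 0.716, permutation adjusted p = 0.0472). Other alternatives weakened the same relations. Over the 4 run for correlations, r reached -0.336 for GBE1 with PHKG1 and 0.306 for GYS1 with PHKG1. It reached 0.458 for PHKG1 with fast fibre genes. The largest permutation adjusted p-values were 0.497, 0.469 and 0.391. Of the 7 low_RFI pigs, 1 correlated best with the high_RFI pig of its own number. Under the replicate block 0 glycogen genes passed, as without it.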
